A study of Homo sapiens with 24 samples.

Results

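Genes around the glucose-sensing factor MondoA were followed in a breast cancer cell line and its derivative when methionine (Met) was exchanged for homocysteine (Hcy). The 7 genes are MLXIP, which encodes MondoA, the arrestin-domain genes TXNIP, ARRDC2, ARRDC3, and ARRDC4, and the phosphofructokinase-2 isoenzyme genes PFKFB3 and PFKFB4. They were chosen by name and are 7 of the 26645 gene rows in the deposited count table. All 7 have a row, 5 passed the expression filter and were tested, and TXNIP and ARRDC4 did not pass it.

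MondoA pairs with MLX, senses glucose 6-phosphate, and switches on TXNIP and ARRDC4 through E-box-like sites in their promoters. TXNIP binds thioredoxin and, like ARRDC4, restrains glucose uptake, and the arrestin-domain proteins (alpha-arrestins) act as adaptors that bring NEDD4-family ubiquitin ligases to membrane proteins. PFKFB enzymes make and break fructose 2,6-bisphosphate, the activator of phosphofructokinase-1, and PFKFB3 and PFKFB4 are isoenzymes often raised in tumor cells.

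RNA came from 24 libraries in 8 groups of 3. MB468 (MDA-MB-468) is an established line of metastatic breast epithelium that stops growing when Hcy, the precursor of Met, takes its place, and MB468res-R8 (MDA-MB-468res-R8) is 1 clone derived from it that grows in Hcy. In every group the cells were grown in DMEM with dialyzed serum, vitamin B12, glutamine, and cysteine. The 0 h groups were in Met+ medium, where Met was 100 µM. The other groups were collected 0.5, 2, or 12 h after transfer to Met-Hcy+ medium, which had 370 µM DL-homocysteine in place of Met. No group received fresh Met+ medium for 0.5, 2, or 12 h, so the loss of Met, the addition of Hcy, the medium change, and time in culture cannot be told apart. The labels number the libraries of a group 1 to 3 and do not say how the cultures relate, so p-values measure the spread between these libraries, which may be technical.

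Library totals ranged from 11745553 to 36496655 counts with a median of 20503827. The epithelial genes EPCAM, CDH1, KRT8, KRT18, and KRT19 were each at 255 CPM (counts scaled to a common library size) or more in every library, and EGFR reached 3052 CPM at the median. Of receptors that a triple-negative line lacks or holds low, PGR was at most 0.0983 CPM, ESR1 ranged from 4.15 to 22.6 CPM, and ERBB2 from 38.3 to 97.3 CPM. Of the genes of other cell types, PTPRC, COL3A1, and DCN were at most 0.199 CPM, PECAM1 ranged from 0.344 to 2.67 CPM, and the collagen gene COL1A1 from 14.6 to 73.2 CPM. Library 2 of MB468 at 2 h stood apart with 705 CPM of the small nuclear RNA gene RN7SK, against 2.55 to 10.2 CPM in the other 23. Results at 2 h in MB468 are therefore also given without it.

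Promoters of 3 of the genes are shown because they hold the letters that MondoA and related E-box factors are known to bind. Each is the RefSeq sequence (GRCh38) of the 250 bases before the annotated start, read 5′ to 3′ on the strand of the gene, with the matched letters in capitals. TXNIP is at chr1:145996580-145996829 on the minus strand, ARRDC4 at chr15:97960453-97960702 on the plus strand, and PFKFB3 at chr10:6202682-6202931 on the plus strand. The PFKFB3 start used by RefSeq lies inside the gene, which the annotation opens at position 6144934.
TXNIP: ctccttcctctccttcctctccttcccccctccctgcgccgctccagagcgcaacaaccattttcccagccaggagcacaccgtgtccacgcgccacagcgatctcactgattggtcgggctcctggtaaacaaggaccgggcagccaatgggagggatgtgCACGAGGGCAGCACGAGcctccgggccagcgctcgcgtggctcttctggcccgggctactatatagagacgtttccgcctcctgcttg
ARRDC4: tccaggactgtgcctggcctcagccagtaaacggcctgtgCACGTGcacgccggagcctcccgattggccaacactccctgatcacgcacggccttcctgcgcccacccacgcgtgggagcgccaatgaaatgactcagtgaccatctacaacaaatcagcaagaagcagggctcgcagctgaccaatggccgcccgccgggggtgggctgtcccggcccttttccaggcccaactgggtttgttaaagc
PFKFB3: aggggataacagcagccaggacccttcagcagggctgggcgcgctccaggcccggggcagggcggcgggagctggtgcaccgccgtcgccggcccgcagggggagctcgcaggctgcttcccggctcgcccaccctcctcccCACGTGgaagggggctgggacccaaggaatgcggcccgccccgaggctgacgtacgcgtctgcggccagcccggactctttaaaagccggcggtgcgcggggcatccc
The capitals in TXNIP are 2 E-box-like sites of the form CACGNG set 5 bases apart, a pair that begins at position -88 from the start and occurs in 16 of 35116 RefSeq promoter windows of this length (0.0456%). The capitals in ARRDC4 and PFKFB3 match CACGTG, at -210 and -108, which occurs in 6.34% of windows. The search covered both strands. The windows of ARRDC2, ARRDC3, MLXIP, and PFKFB4 did not hold either set of letters. CCAAT was found 2 times in TXNIP, 3 times in ARRDC4, and 1 time each in ARRDC2, ARRDC3, and MLXIP, and occurs in 32% of windows. A match says only that these letters are present, and binding was not measured.

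TXNIP, the classic target of MondoA, had 0 counts in each of the 24 libraries. A count of 0 allows up to 3 counts, which is 0.00549 CPM over the 546222537 counts of all libraries together, 0.255 CPM in the shallowest library, and 0.0822 CPM in the deepest, for counting error only. As counted, TXNIP lay below these limits in both cell lines and at every time, and no comparison can be made for it. TXNIP lies at chr1:145992435-145996579 on the minus strand, and genes on either side were counted. POLR3GL, its nearest neighbor on one side, had 5414 counts over all libraries, RBM8A had 75513, and NBPF10 on the other side, a member of a family of near copies and so uncertain, had 2071. Of the 26645 gene rows, 5361 (20.1%) were at 0 in every library. All 159 windows of 100 bases cut from the TXNIP exons aligned to its own place in hg38, and 0 aligned elsewhere with up to 2 mismatches, in a file of 455 sequences of which 261 are alternate. Why this row holds no counts was not tested.

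**Figure D1:**
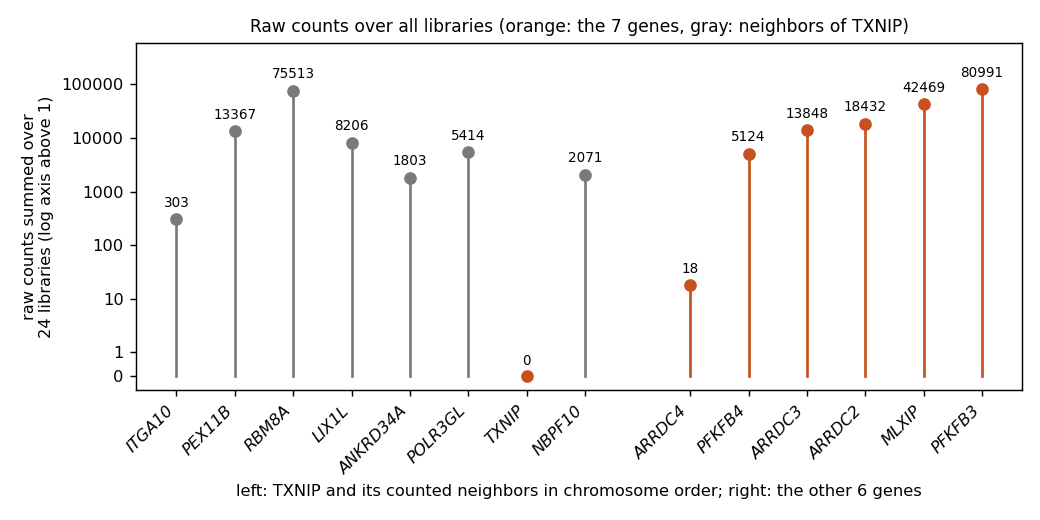
Raw counts summed over the 24 libraries (vertical axis, logarithmic above 1) for TXNIP and its counted neighbors in chromosome order (left) and for the other 6 genes (right). Orange marks the 7 genes and gray the neighbors: TXNIP is at 0 between neighbors with 303 to 75513 counts, and ARRDC4 has 18 counts.

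ARRDC4, the other alpha-arrestin gene known as a MondoA target (chr15:97960703-97973833, plus strand), had 18 counts in all. In MB468 the raw counts were 1, 1, and 1 at 0 h, 0 in each library at 0.5 h, 2, 1, and 1 at 2 h, and 6, 0, and 3 at 12 h. In MB468res-R8 every library was at 0 at 0 h, 0.5 h, and 2 h, and the counts at 12 h were 1, 0, and 1. Most libraries thus had no count or 1 count, and library 1 of MB468 at 12 h, with 6, was alone in passing 3. The gene failed the expression filter, and differences between times or cell lines were not tested at these low counts. All 169 windows from its exons aligned to its own place and 0 elsewhere.

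Levels per length are given as RPKM, TMM-scaled counts divided by the length of all exons of the gene. In MB468 at 0 h PFKFB3 stood highest at 29.0 ± 0.827 RPKM (SD, n = 3), followed by ARRDC2 at 10.1 ± 0.354, MLXIP at 7.11 ± 0.182, ARRDC3 at 4.05 ± 0.278, and PFKFB4 at 1.64 ± 0.157. Each step in that order was larger than the SDs of its neighbors. In MB468res-R8 at 0 h the order was PFKFB3 (21.7 ± 1.31 RPKM), ARRDC2 (7.97 ± 0.952), ARRDC3 (6.65 ± 0.457), MLXIP (4.67 ± 0.154), and PFKFB4 (1.48 ± 0.211), so ARRDC3 and MLXIP changed places between the lines by this length. With the length of the longest transcript instead, ARRDC3 and MLXIP were close there, at 7.82 and 7.72 RPKM, so the swap is not settled. PFKFB3 was the highest and PFKFB4 the lowest of the tested genes in all 8 groups. ARRDC2 stood next to MLXIP at 0.5 h in MB468 (6.03 ± 0.217 against 6.27 ± 0.366 RPKM) and next to ARRDC3 at 12 h in MB468res-R8 (5.47 ± 0.464 against 5.81 ± 0.0827 RPKM), and ARRDC3 next to MLXIP at 2 h in MB468 (5.48 ± 0.132 against 5.83 ± 0.287 RPKM), where the neighbors did not differ beyond their spread. ARRDC2 and ARRDC3 in MB468res-R8 also overlapped within their SDs at 0 h and at 0.5 h (5.06 ± 0.247 against 5.67 ± 0.484 RPKM), so their order there is not settled. Among family members outside the 7 genes, ARRDC1 stood at 11.4 ± 0.624 RPKM and PFKFB2 at 6.52 ± 0.327 RPKM in MB468 at 0 h, while PFKFB1 and ARRDC5 were at 0.422 ± 0.153 and 0.0758 ± 0.0971 RPKM.

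The plot of normalized counts by library and the following sentences give the 5 tested genes. Counts were normalized by dividing by the effective size of the library after TMM scaling, times the average of these sizes. Every change is a log2 fold change with its standard error (SE) from the edgeR quasi-likelihood fit, Benjamini-Hochberg method over 14741 genes, and a gene is called changed at an adjusted p under 0.05. These are bulk RNA values, so a shift in the cells present and a shift in RNA per cell cannot be told apart.

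**Figure D2:**
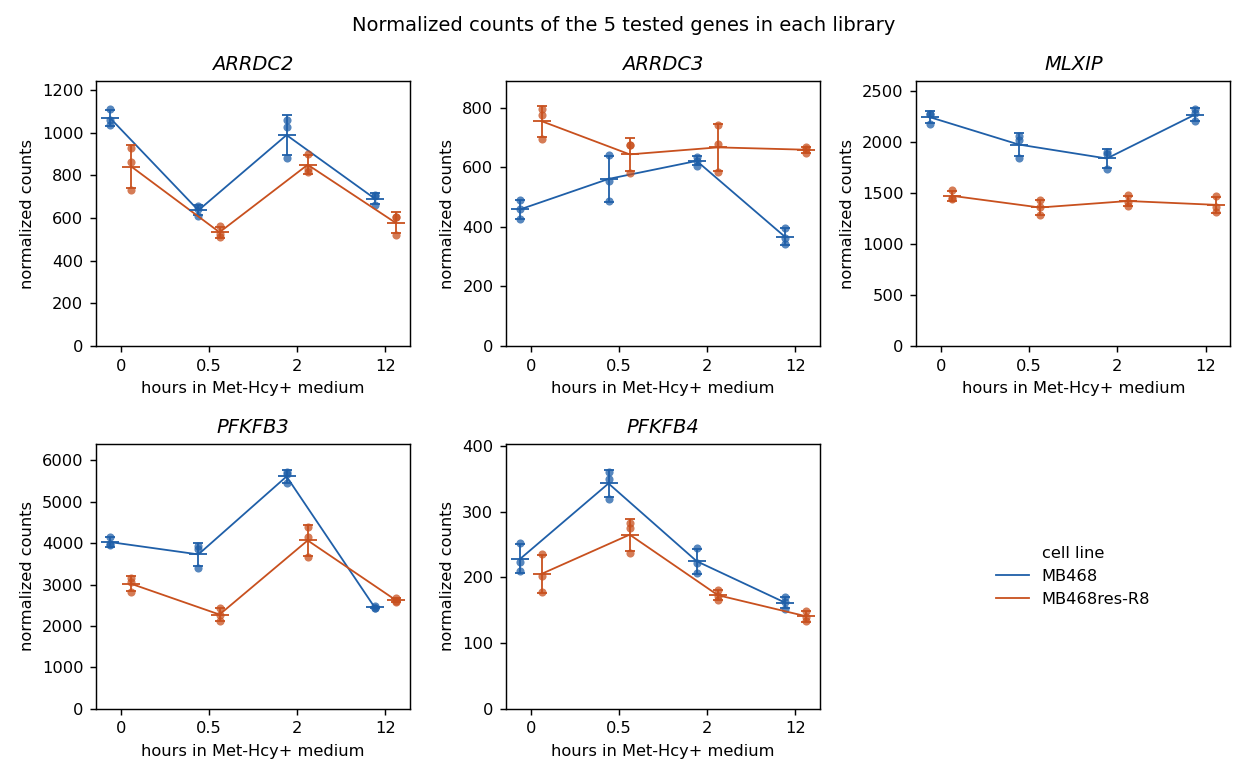
Normalized counts (vertical axis, from 0) of ARRDC2, ARRDC3, MLXIP, PFKFB3, and PFKFB4 by hours in Met-Hcy+ medium (not to scale), with a point for each library, a bar for the mean and SD of the 3 libraries, and a line through the means. ARRDC2 was low at 0.5 and 12 h in both cell lines, PFKFB3 peaked at 2 h and PFKFB4 at 0.5 h, MLXIP was lower in every MB468res-R8 library than in every MB468 library, and ARRDC3 rose and then fell in MB468 and was highest at 0 h in MB468res-R8.

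MLXIP, the sensor (chr12:122078756-122147344, plus strand), was lower in MB468res-R8 than in MB468 at both ends of the course, and fell in MB468 at 0.5 and 2 h. In MB468, MLXIP had 2177, 2277 and 2275 normalized counts in the 3 libraries at 0 h, 2025, 1845 and 2060.3 at 0.5 h, 1899, 1885 and 1735 at 2 h, and 2321, 2204 and 2286 at 12 h. In MB468res-R8, MLXIP had 1445, 1530.3 and 1447 normalized counts in the 3 libraries at 0 h, 1429, 1366 and 1282 at 0.5 h, 1479.8, 1413 and 1375 at 2 h, and 1472, 1365 and 1318 at 12 h. Every MB468res-R8 library was below every MB468 library, and in MB468 the libraries at 0.5 and 2 h were all below those at 0 h and 12 h. The line difference was -0.61 ± 0.05 (SE) on the log2 scale at 0 h (adjusted p = 2.93e-13 from the edgeR quasi-likelihood fit, Benjamini-Hochberg method) and -0.71 ± 0.05 at 12 h (adjusted p = 4.09e-16). In MB468 MLXIP fell at 0.5 h (-0.18 ± 0.05, edgeR adjusted p = 0.00368) and at 2 h (-0.29 ± 0.05, adjusted p = 4.9e-05, and -0.30 without library 2), and at 12 h the change was 0.02 ± 0.05 and not called. MLXIP thus dipped in MB468, and its libraries at 12 h overlapped those at 0 h (TMM scaling). In MB468res-R8 the changes of -0.11, -0.05, and -0.09 at 0.5, 2, and 12 h did not pass the test, although the first did without library 1 at 0.5 h (-0.16). The response at 2 h differed between the lines by 0.24 ± 0.07, at the edge of the threshold (edgeR adjusted p = 0.0496), and this call was lost without any 1 of 16 of the 24 libraries (values 0.19 to 0.26). The exceptions were libraries 2 of MB468res-R8 at 0 h, 2 and 3 of MB468 and 3 of MB468res-R8 at 0.5 h, 1 of MB468 and 3 of MB468res-R8 at 2 h, and 1 and 3 of MB468res-R8 at 12 h. MLX, the partner of MondoA, rose at 12 h in both cell lines, by 0.48 in MB468 and 0.23 in MB468res-R8, and MLXIPL, which encodes the related sensor ChREBP, fell by 1.83 and 1.15 on the same scale.

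ARRDC2, an alpha-arrestin (chr19:18001132-18014102, plus strand), dropped at 0.5 h, returned by 2 h, and was low again at 12 h, in both cell lines, with TMM scaling. In MB468, ARRDC2 had 1035, 1059.8 and 1109 normalized counts in the 3 libraries at 0 h, 610.5, 655 and 643 at 0.5 h, 1058, 880.2 and 1028 at 2 h, and 709, 662 and 702 at 12 h. In MB468res-R8, ARRDC2 had 930.2, 860.2 and 732 normalized counts in the 3 libraries at 0 h, 526, 512 and 562 at 0.5 h, 901, 831 and 817 at 2 h, and 604, 520.4 and 606 at 12 h. In each cell line the libraries at 0.5 and 12 h were all below those at 0 h and 2 h, and the libraries at 0 h and 2 h overlapped. The mean in MB468 went from 1068 ± 37.3 (SD, n = 3) to 636 ± 22.9 at 0.5 h, 989 ± 95.2 at 2 h, and 691 ± 25.3 at 12 h. Its log2 fold change against 0 h was -0.75 ± 0.08 (SE) at 0.5 h in MB468 and -0.67 ± 0.08 in MB468res-R8 (edgeR adjusted p = 1.03e-10 and 3e-09). At 12 h it was -0.62 ± 0.07 and -0.55 ± 0.08 (edgeR adjusted p = 5.37e-10 and 5.43e-08). At 2 h ARRDC2 was not called in either, at -0.10 ± 0.07 (-0.03 without library 2) and 0.01 ± 0.07. With spike-in scaling it was called lower at 2 h in MB468 (-0.53, edgeR adjusted p = 0.000843). The gene thus went down, up, and down again in that order in both cell lines. Between 0.5 h and 2 h, a comparison added after the data were seen, it rose by 0.65 and 0.67 (edgeR adjusted p = 7.19e-09 and 1.86e-09). The level was lower in MB468res-R8 at 0 h (-0.33 ± 0.07, edgeR adjusted p = 0.000151) and at 12 h (-0.26 ± 0.08, adjusted p = 0.00217), and no test called a difference between the lines in its response, with values of 0.08, 0.11, and 0.07.

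ARRDC3, an alpha-arrestin known as an adaptor for the removal of surface receptors and integrins (chr5:91368631-91383317, minus strand), was called in opposite directions in the 2 lines at 0.5 h, with TMM scaling. In MB468, ARRDC3 had 426, 489 and 461 normalized counts in the 3 libraries at 0 h, 487, 554 and 641 at 0.5 h, 606, 635 and 622 at 2 h, and 341, 362 and 397 at 12 h. In MB468res-R8, ARRDC3 had 794, 696 and 774 normalized counts in the 3 libraries at 0 h, 674, 675 and 579.7 at 0.5 h, 583, 676 and 740.2 at 2 h, and 667, 660.5 and 649 at 12 h. In MB468 the libraries at 2 h were all above those at 0 h, those at 12 h were below all others, and the lowest at 0.5 h lay just under the highest at 0 h. In MB468res-R8 the highest values were at 0 h, the libraries at 0.5 and 12 h were all below these, and the libraries at 2 h overlapped them. ARRDC3 rose in MB468 by 0.26 ± 0.09 at 0.5 h (adjusted p = 0.0187 from the edgeR quasi-likelihood fit, Benjamini-Hochberg method) and by 0.43 ± 0.09 at 2 h (adjusted p = 0.00039, and 0.42 without library 2), and was lower at 12 h (-0.32 ± 0.09, adjusted p = 0.00142). In MB468res-R8 it fell at 0.5 h (-0.23 ± 0.08, edgeR adjusted p = 0.0306) and at 12 h (-0.20 ± 0.08, adjusted p = 0.0374), and -0.18 ± 0.08 at 2 h did not pass. With TMM scaling ARRDC3 thus started lower in MB468, rose until 2 h, and was below its start at 12 h. In MB468res-R8 it started higher and fell. With spike-in scaling the rises in MB468 at 0.5 and 2 h (0.06 and 0.02) were not called. Nor were the falls in MB468res-R8 at 0.5 and 12 h (-0.18 and -0.18). The responses differed between the lines by -0.49 ± 0.12 at 0.5 h (edgeR adjusted p = 0.0142) and -0.62 ± 0.12 at 2 h (adjusted p = 0.000708). At 12 h the difference of 0.12 ± 0.12 was not called. The level in MB468res-R8 was higher than in MB468 at 0 h (0.72 ± 0.09, edgeR adjusted p = 3.16e-09) and at 12 h (0.84 ± 0.09, adjusted p = 2.07e-11) with no overlap, while the lines overlapped at 0.5 and 2 h. The call at 0.5 h in MB468 was lost without library 1 at 0 h (0.20) or library 2 (0.25) or 3 (0.17) at 0.5 h, and that in MB468res-R8 without library 1 (-0.19) or 3 (-0.22) at 0 h or library 3 at 0.5 h (-0.16). The difference at 0.5 h was lost without library 1 at 0 h of either line (-0.44 each) or library 3 at 0.5 h of MB468 (-0.40) or MB468res-R8 (-0.41). The call at 12 h in MB468res-R8 was lost without any 1 of 10 libraries, with values of -0.13 to -0.20: library 3 at 0 h and 1 and 2 at 0.5 h of MB468, and of MB468res-R8 libraries 1 and 3 at 0 h, 3 at 0.5 h, 3 at 2 h, and 1, 2, and 3 at 12 h. ARRDC3 shares 145 exonic bases with the opposite-strand gene ARRDC3-AS1, which had 1007 counts over all libraries against 13848 for ARRDC3, and the library kit does not mark strand.

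PFKFB3, the isoenzyme with the most one-sided kinase activity (chr10:6144934-6254644, plus strand), peaked at 2 h in both cell lines and at 12 h was below its starting level, with TMM scaling. With spike-in scaling the rise from 0 h to 2 h was not called in either line (0.06 in MB468 and 0.39 in MB468res-R8). Nor was the fall from 0 h to 12 h in MB468res-R8. In MB468, PFKFB3 had 3969, 3953 and 4159.6 normalized counts in the 3 libraries at 0 h, 3921, 3409.8 and 3857 at 0.5 h, 5674, 5445 and 5717 at 2 h, and 2471, 2429 and 2446 at 12 h. In MB468res-R8, PFKFB3 had 3073, 3167 and 2814 normalized counts in the 3 libraries at 0 h, 2439, 2273 and 2117 at 0.5 h, 4139.9, 4392 and 3669 at 2 h, and 2683, 2602 and 2584 at 12 h. Every library at 2 h was above every other library of its line, and in MB468 the 3 libraries at 12 h were the lowest while in MB468res-R8 those at 0.5 h were. The rise at 2 h was 0.48 ± 0.05 in MB468 (0.50 without library 2) and 0.43 ± 0.06 in MB468res-R8 (edgeR adjusted p = 1.91e-08 and 8.44e-07). The difference between these rises was -0.05 ± 0.08 and was not called. At 0.5 h PFKFB3 fell in MB468res-R8 (-0.41 ± 0.06, edgeR adjusted p = 4.21e-07), the change in MB468 was -0.11 ± 0.05 (adjusted p = 0.126), and the difference between them of -0.30 ± 0.08 was called (adjusted p = 0.0296) but was lost without any 1 of 8 libraries, with values of -0.23 to -0.29. These were libraries 1 and 2 at 0 h of each line, 1 and 3 at 0.5 h of MB468, and 2 and 3 at 0.5 h of MB468res-R8, and the change in MB468 itself was called without library 1 of MB468 at 0.5 h (-0.17) or 3 of MB468res-R8 at 2 h (-0.12). At 12 h the fall against 0 h was -0.72 ± 0.05 in MB468 and -0.20 ± 0.06 in MB468res-R8 (edgeR adjusted p = 7.42e-14 and 0.00208). PFKFB3 thus fell further in MB468 by 12 h, and that difference of 0.51 ± 0.08 was called (edgeR adjusted p = 8.93e-07) and stayed called without each of the 24 libraries in turn. From 2 h to 12 h PFKFB3 fell by 1.20 in MB468, from 5612 ± 146 to 2449 ± 21.1 normalized counts (SD, n = 3), and by 0.64 in MB468res-R8. The gene was lower in MB468res-R8 at 0 h (-0.41 ± 0.06, edgeR adjusted p = 7.68e-08). At 12 h the MB468 libraries lay below those of MB468res-R8 without overlap, yet the difference of 0.10 ± 0.06 was not called (adjusted p = 0.109), and it was called with DESeq2's size factors in edgeR (0.12, adjusted p = 0.0475) and in a fit to the groups compared alone (0.14, adjusted p = 0.00468). It was also called without library 3 at 0 h or 1 or 2 at 0.5 h of MB468, or without library 1 at 0 h, 3 at 0.5 h, 3 at 2 h, or 3 at 12 h of MB468res-R8 (0.13 to 0.15). With spike-in scaling this difference in level at 12 h was 0.05 and not called (edgeR adjusted p = 0.781).

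PFKFB4, an isoenzyme known to be induced by hypoxia (chr3:48517684-48562015, minus strand), peaked earlier, at 0.5 h. In MB468, PFKFB4 had 252, 223 and 209 normalized counts in the 3 libraries at 0 h, 349, 359.9 and 319 at 0.5 h, 207, 245 and 222 at 2 h, and 152, 163 and 169.8 at 12 h. In MB468res-R8, PFKFB4 had 201, 236 and 178 normalized counts in the 3 libraries at 0 h, 283, 275 and 237 at 0.5 h, 172, 181 and 165 at 2 h, and 133, 149 and 139.7 at 12 h. In each cell line all libraries at 0.5 h were above, and all at 12 h below, those at 0 h, and the libraries at 2 h overlapped those at 0 h. PFKFB4 rose at 0.5 h by 0.59 ± 0.10 in MB468 and 0.37 ± 0.11 in MB468res-R8 (edgeR adjusted p = 1.49e-05 and 0.00587). The call in MB468res-R8 was lost without its library 3 at 0 h (0.28, adjusted p = 0.059). At 2 h the changes of -0.04 ± 0.11 in MB468 (-0.10 without library 2) and -0.24 ± 0.11 in MB468res-R8 were not called, and at 12 h PFKFB4 was lower (-0.50 ± 0.11 and -0.55 ± 0.11, edgeR adjusted p = 6.13e-05 and 5.76e-05). The lines differed at 0 h by -0.16 ± 0.11 and at 12 h by -0.20 ± 0.11, neither of which passed, and no difference in response was called (-0.22, -0.20, and -0.04). PFKFB4 shares 298 exonic bases with UCN2, which had 42 counts over all libraries against 5124 for PFKFB4.

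Per length, PFKFB3 exceeded PFKFB4 in every library, and their ratio swung with the different timing of their peaks. In MB468 the ratio of RPKM was 17.8 ± 2.06 at 0 h (SD, n = 3), 10.9 ± 1.33 at 0.5 h, 25.1 ± 2.66 at 2 h, and 15.2 ± 0.948 at 12 h. In MB468res-R8 it was 14.8 ± 1.26, 8.60 ± 0.330, 23.5 ± 1.16, and 18.7 ± 1.36. In each cell line the libraries at 0.5 h held the lowest ratios and those at 2 h the highest, with no overlap with the other times. The ratio was not tested, and it does not depend on how libraries are scaled.

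**Figure D3:**
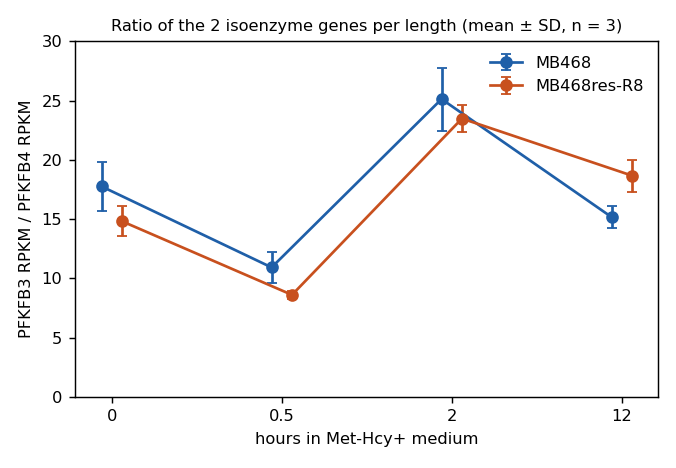
Ratio of PFKFB3 to PFKFB4 in RPKM (vertical axis, from 0) by hours in Met-Hcy+ medium (not to scale), as mean and SD of 3 libraries in MB468 (blue) and MB468res-R8 (orange). In each line the ratio is lowest at 0.5 h and highest at 2 h.

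Counted together, 4 of the 5 tested genes differed between the lines at 0 h (1 higher and 3 lower in MB468res-R8), where 53.5% of all tested genes were called. In MB468, 4 of 5 were called at 0.5 h (33.9% of all genes), 3 at 2 h (16.3%), and 4, all lower, at 12 h (70.8%). In MB468res-R8, 4 were called at 0.5 h (33.7%), 1 at 2 h (4.37%), and 4, again all lower, at 12 h (61.3%). These shares count both directions. Of the 14741 genes, 5113 were called lower at 12 h in MB468 and 4586 in MB468res-R8. The response differed between the lines for 2 genes at 0.5 h (2.90% of all genes), 2 at 2 h (5.07%), and 1 at 12 h (56.5%). At 12 h, 3 of 5 differed in level between the lines (73.1%), and from 2 h to 12 h all 5 changed in MB468 (69.7%) and 3 in MB468res-R8 (62.5%). From 0.5 h to 2 h, 3 changed in each line (32.7% and 35.3%). Against 0 h, the shares of the 5 genes called in either direction at 12 h lay near those of all genes. Their common direction was not tested.

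**Figure D4:**
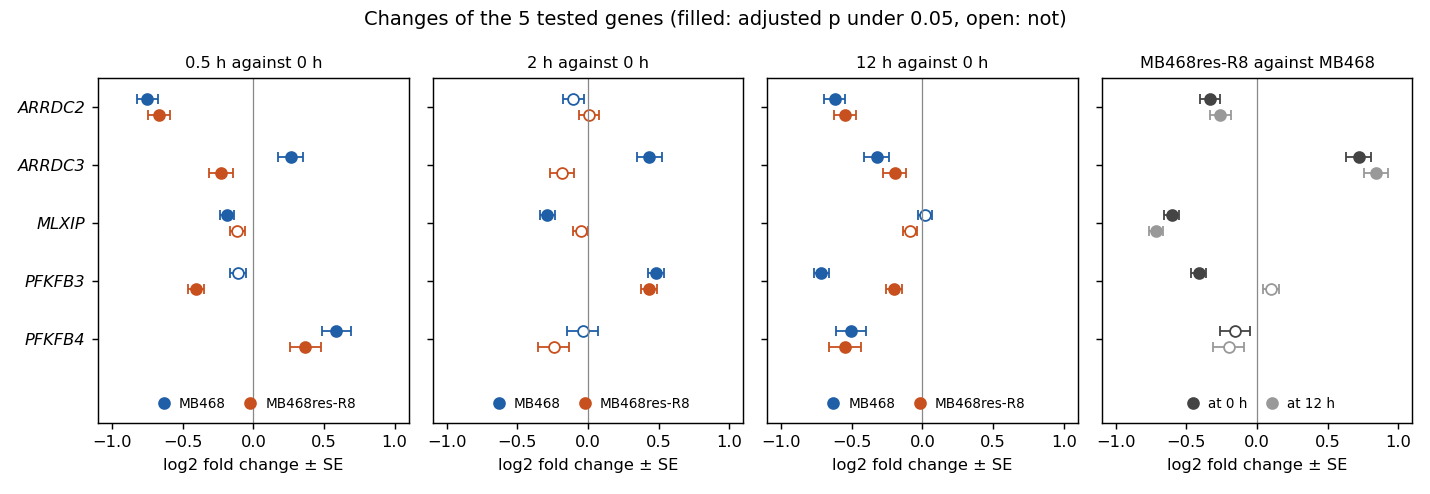
Log2 fold changes with SE (horizontal axis) of the 5 tested genes in MB468 (blue) and MB468res-R8 (orange) against 0 h, and of MB468res-R8 against MB468 at 0 h (dark gray) and 12 h (light gray). Filled points passed an adjusted p under 0.05 in the edgeR quasi-likelihood fit and open points did not: ARRDC2 and PFKFB4 lie close together in both cell lines, ARRDC3 lies on opposite sides of 0 at 0.5 and 2 h, and PFKFB3 at 12 h is -0.72 in MB468 and -0.20 in MB468res-R8.

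Scaling the libraries on spike-in RNAs, in place of TMM, moved the median of all genes, and with it some directions. In MB468 that median went to -0.20 at 0.5 h, -0.42 at 2 h, and -0.23 at 12 h, and in MB468res-R8 to 0.04, -0.04, and 0.00, while MB468res-R8 against MB468 at 0 h went to -0.31. At 0 h all 5 genes then differed between the lines, PFKFB4 included (-0.47, edgeR adjusted p = 0.0119). Under this scaling ARRDC3 and PFKFB3 at 2 h in MB468 had log2 fold changes of 0.02 and 0.06, not called, which is 0.43 and 0.47 above the median gene. ARRDC2 and PFKFB4 at 2 h in MB468 were then called lower (-0.53 and -0.46). The rises of ARRDC3 (0.06) and PFKFB4 (0.38) at 0.5 h in MB468 were not called. In MB468res-R8 the calls at 0.5 h of ARRDC3 (-0.18), PFKFB3 (-0.35, edgeR adjusted p = 0.0508), and PFKFB4 (0.43) were lost, as were that of PFKFB3 at 2 h (0.39, adjusted p = 0.151) and those of ARRDC3 and PFKFB3 at 12 h (-0.18 and -0.18). From 2 h to 12 h PFKFB4 was no longer called in either line (-0.29 in MB468 and -0.24 in MB468res-R8). The fall of ARRDC3 at 12 h in MB468 was called (-0.56), as was its higher level in MB468res-R8 at 0 h (0.41) and 12 h (0.80). The differences in response of ARRDC3 at 0.5 and 2 h (-0.24 and -0.25) and of PFKFB3 at 0.5 h (-0.02, edgeR adjusted p = 0.94) were not called. Those of MLXIP at 2 h (0.61) and PFKFB3 at 12 h (0.77) were called, beside medians of 0.38 and 0.20 over all genes. The falls of ARRDC2 at 0.5 h and 12 h were called under this scaling in both cell lines, at -0.96 and -0.87 in MB468 and -0.61 and -0.53 in MB468res-R8.

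The genes around them were followed with 9 hand-written lists, described by counts alone, with log2 fold changes against 0 h, beside a median over all genes between -0.06 and 0.01 in each comparison with TMM scaling. MLXIP, the arrestin-domain genes, PFKFB3, and PFKFB4 are themselves on these lists and were counted in them where tested. Of all genes, 70.8% were called at 12 h in MB468, 61.3% in MB468res-R8, and 56.5% for the difference in response, against 33.9% and 33.7% at 0.5 h. With spike-in scaling 8460 of the 14741 genes were called at 12 h in MB468, 5887 in MB468res-R8, and 5797 for the difference in response. At 0.5 h 3287 and 2023 were called. The medians of all genes were then -0.23, 0.00, and 0.20 at 12 h, and -0.20 and 0.04 at 0.5 h. Beyond those needed for their role or family, genes were named at a change of at least 2-fold. A gene named in 1 line may thus have changed by less in the other. Of 11 genes of the Mondo and Max-like network, the factors that share MLX or MAX as partners, 6 rose and 3 fell at 12 h in MB468 and 3 rose and 6 fell in MB468res-R8 (list medians 0.21 and -0.23), and 4 rose and 2 fell at 0.5 h in MB468 against 5 and 1 in MB468res-R8. With spike-in scaling the calls of this list at 12 h were 1 higher and 3 lower in MB468 and 1 higher and 3 lower in MB468res-R8. The list medians were then -0.04 and -0.21, beside -0.23 and 0.00 over all genes. At 0.5 h the calls were 2 higher and 2 lower in MB468 and 3 higher and 1 lower in MB468res-R8. The contrast in counts between the lines at 12 h thus depended on the scaling. Under both scalings the list median lay above that of all genes in MB468 and below it in MB468res-R8. At 12 h MNT, a repressor that pairs with MAX and MLX, fell in both (-1.04 and -1.73), as it did at 0.5 h (-1.02 and -1.31), and MXD1, a MAX-binding repressor, rose in MB468 (1.34) while MXD4 fell there (-1.51). In MB468res-R8 the mean of MXD4 went from 1080 normalized counts at 0 h to 542 at 12 h. That of MXD1 went from 303 to 316. MYC rose at 0.5 h in both (1.36 and 1.42). Of the 6 alpha-arrestin genes 3 were tested, and all 3 fell at 12 h in each line, the 2 already described and ARRDC1 (-0.35 in MB468 and -0.20 in MB468res-R8). With spike-ins 0 higher and 3 lower were called in MB468 and 0 higher and 1 lower in MB468res-R8. Of their 9 partner ubiquitin ligases of the NEDD4 family, 5 rose and 1 fell in MB468 and 3 rose and 3 fell in MB468res-R8 at 12 h, and with spike-in scaling the counts were 1 higher and 2 lower in MB468 and 2 higher and 2 lower in MB468res-R8. NEDD4L fell at 0.5 h in both lines (-1.33 and -1.14) and at 12 h in MB468res-R8 (-1.06). In MB468 its mean also went down, from 3756 normalized counts at 0 h to 2050 at 12 h.

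Of 13 genes of the thioredoxin system, to which the partner of TXNIP belongs, 2 rose and 8 fell at 12 h in MB468 and 2 rose and 3 fell in MB468res-R8, and the response differed for 10, with 8 higher in MB468res-R8. With spike-in scaling 0 higher and 10 lower in MB468 and 0 higher and 1 lower in MB468res-R8 were called, and 8 higher and 0 lower for the difference. TXN, thioredoxin itself, rose in MB468res-R8 at 12 h (0.25) and was at -0.08 and not called in MB468. TXNRD1, its reductase, fell at 0.5 h in both (-0.58 and -0.36) and at 12 h was 0.15 in MB468 and -0.27 in MB468res-R8, both called, but with spike-in scaling the value in MB468 was -0.08 and neither was called. Of 12 glucose transporter and hexokinase genes 11 were tested, of which 3 rose and 5 fell in MB468 and 2 rose and 6 fell in MB468res-R8 at 12 h (with spike-ins 2 higher and 5 lower in MB468 and 1 higher and 6 lower in MB468res-R8). SLC2A1, the transporter that TXNIP is known to restrain, was higher in MB468res-R8 at 0 h (0.94), and at 12 h rose in MB468 (0.24) and fell in MB468res-R8 (-0.40), a difference of -0.64 (adjusted p = 5.9e-11 from the edgeR quasi-likelihood fit, Benjamini-Hochberg method). With spike-in scaling SLC2A1 in MB468 was at -0.0015 at 12 h, and the difference (-0.38) was not called. HK2, hexokinase 2, fell at 12 h in MB468 (-0.25) and was at -0.06 and not called in MB468res-R8. HKDC1, a further hexokinase gene, rose at 12 h in MB468 (2.77) after a fall at 0.5 h (-1.35). Of the glucose transporter genes, SLC2A4 and SLC2A10 fell at 12 h in both lines (-1.98 and -1.99 in MB468, -1.90 and -2.03 in MB468res-R8), from 96 raw counts over 3 libraries for SLC2A10 in MB468 and 17 in MB468res-R8. SLC2A6 fell in MB468 (-1.03), and SLC2A3 and SLC2A12 fell in MB468res-R8 (-1.82 and -1.36). In MB468res-R8 the mean of SLC2A6 went from 719 normalized counts at 0 h to 439 at 12 h. In MB468 the means went from 12.8 to 8.66 for SLC2A3 and from 414 to 464 for SLC2A12. SLC2A3 had few reads, with 76 raw counts over 3 libraries at 0 h in MB468res-R8 and 22 at 12 h.

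At the phosphofructokinase step, 8 of 10 listed genes were tested, of which 1 rose and 5 fell in MB468 and 2 rose and 6 fell in MB468res-R8 at 12 h (list medians -0.70 and -0.21). PFKFB3 and PFKFB4, already described, were among the falls in each line. With spike-in scaling the calls were 1 higher and 6 lower in MB468 and 2 higher and 1 lower in MB468res-R8. TIGAR, which breaks down fructose 2,6-bisphosphate, rose in both (0.99 and 0.44), and PFKFB2 was at 0.09, not called, in MB468 and fell in MB468res-R8 (-0.22). PFKM, the muscle form of phosphofructokinase-1, fell in MB468 (-1.05). Its mean in MB468res-R8 went from 1020 normalized counts at 0 h to 889 at 12 h. The means of PFKP, also on this list, moved in opposite directions. MB468 had 4504 normalized counts of PFKP at 0 h and 2792 at 12 h. For MB468res-R8 these values were 6654 and 11508. By the test of the difference in response at 12 h, 4 genes of this list were higher in MB468res-R8 and 2 lower. Spike-in scaling left 4 higher and 0 lower. Of 14 genes of lower glycolysis and lactate export, 1 rose and 12 fell in MB468 (median -0.51) and 10 rose and 1 fell in MB468res-R8 (median 0.22), and the response differed for all 14, with 13 higher and 1 lower in MB468res-R8, where 56.5% of all genes differed. With spike-ins the split of the difference was the same, with 0 higher and 13 lower in MB468 and 4 higher and 1 lower in MB468res-R8. LDHA and LDHB, the lactate dehydrogenase subunits, differed by 1.36 and 1.24, and so did ALDOC, an aldolase (1.55), while SLC16A3, a lactate exporter, was the gene that went lower (-1.01). ALDOC fell in MB468 (-1.57) and SLC16A3 in MB468res-R8 (-1.43). ALDOC had few reads, with 209 raw counts over 3 libraries at 0 h and 94 at 12 h in MB468. In MB468res-R8 it had 48 and 51. Of 14 hypoxia-inducible-factor targets outside glycolysis, 6 rose and 4 fell in MB468 and 3 rose and 6 fell in MB468res-R8 at 12 h, and at 0.5 h 8 rose and 2 fell in MB468 and 4 rose and 6 fell in MB468res-R8. Spike-in scaling left 2 higher and 2 lower in each line at 0.5 h. At 12 h it left 3 higher and 5 lower in MB468 and 3 higher and 4 lower in MB468res-R8. By the test of the difference in response, 0 were higher and 5 lower in MB468res-R8 at 0.5 h (2.90% of all genes). The counts were 0 and 4 at 2 h (5.07%) and 4 and 5 at 12 h (56.5%). With spike-ins 0 higher and 2 lower differed at 0.5 h, where 101 of all genes did, and the list median was -0.03 beside 0.26. At 2 h 0 higher and 1 lower differed with spike-ins, where 931 of all genes did. DDIT4, a stress-induced inhibitor of mTORC1 signaling, rose at 0.5 h in both (2.84 and 2.89) and at 12 h (2.25 and 1.02). VEGFA, an angiogenic factor, rose in MB468 at 0.5 h (1.22) and 12 h (1.07). In MB468res-R8 ADM, NDRG1, and ANGPTL4 fell at 0.5 h (-1.18, -1.51, and -1.08, the last not called with spike-ins), and ADM and ANGPTL4 at 12 h (-1.72 and -1.12). ANKRD37 fell at 12 h in both lines (-1.29 and -2.04). Of 6 genes for subunits of the energy sensor AMPK, 3 rose and 2 fell in MB468 and 3 rose and 1 fell in MB468res-R8 at 12 h, and with spike-in scaling 0 higher and 3 lower in MB468 and 1 higher and 1 lower in MB468res-R8. Of the genes named from the lists, MLX (both cell lines at 12 h), ARRDC1, TXN, and PFKFB2 (MB468res-R8 at 12 h), and TXNRD1 (MB468res-R8 at 0.5 h) also lost their call with spike-in scaling without a change of sign, and TXN was called lower in MB468 (-0.31). At 2 h in MB468res-R8, where 4.37% of all genes were called, 3 of 11 passed in the Mondo and Max-like network (2 higher and 1 lower), 3 of 14 hypoxia targets (all lower), 2 of 9 ubiquitin ligases (1 in each direction), and 1 of 8 at the phosphofructokinase step, which was PFKFB3. None passed in the other 5 lists.

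Across the 24 libraries, after the mean of each line was subtracted, ARRDC2 and PFKFB3 correlated at 0.703, ARRDC3 and PFKFB3 at 0.651, ARRDC3 and MLXIP at -0.591, and PFKFB3 and PFKFB4 at 0.117 (Pearson, log2 CPM). Without that subtraction the values were 0.752, 0.104, -0.807, and 0.253, so the second rested on the centering. These and the genes most like PFKFB4 were computed after the data were seen, since TXNIP with its 0 counts could not be ranked, and libraries of a group share their time and line. Of 10948 genes, those most like PFKFB3 over these libraries were RHPN2 (0.961), LMNA (0.958), SERPINB1 (0.933), ISG20 (0.927), and SERPINB5 (0.926). Those most like PFKFB4 were PLK2 (0.934), EHF (0.930), KIT (0.926), PTCHD1 (0.924), and NBEAL1 (0.921).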

How the data were processed

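RNA of 24 libraries, 3 per group, was analysed from gene counts. The authors aligned the reads to GRCh38 (hg38) joined with spike-in sequences with HISAT2 2.1.0 and counted them per gene with featureCounts (Subread 1.5.3), and the deposited table holds these raw counts for 26645 gene rows and 92 spike-ins. The other 2 deposited tables were not used: the authors' DESeq2-normalized counts, and the fold changes and p-values of their own comparisons.

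Groups were taken from the labels. The analysis used edgeR 4.0.16 in R 4.3.3. Spike-ins were left out and 14741 genes passed filterByExpr (minimum count 10, minimum total count 15). Libraries were scaled by TMM, and a robust quasi-likelihood model with a mean for each of 8 groups gave every comparison. Benjamini-Hochberg adjustment covered all genes tested (threshold 0.05). RPKM used the union of GENCODE exons. Windows of 100 bases were aligned with minimap2 2.31. Simulated counts with 200 changed genes were used to test the code.

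The results of the 5 tested genes were recomputed with the size factors of DESeq2 1.42.0 and with library sizes from the spike-in totals. They were also recomputed with no filter on low counts, with genes of at least 10 counts in every library, and with the Wald test of DESeq2. Further settings were the groups compared alone, a block for the replicate number, an adjusted p under 0.01, and each library left out in turn. Levels were recomputed with transcript length in place of exon length, and correlations without centering. The lists and the genes named from them were recomputed only with DESeq2's size factors and with the spike-in totals. The comparison of 2 h with 0.5 h, the correlations among the genes, the genes most like PFKFB4, and the alignment of windows were additions made once the data had been seen.

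The genes and lists were chosen with earlier results of these data known. Named genes were the 7 genes in every comparison, and genes of the lists that changed at least 2-fold in the comparison described or whose role is needed, chiefly MLX, MLXIPL, PFKFB2, TIGAR, SLC2A1, HK2, TXN, and TXNRD1. ARRDC1, ARRDC5, and PFKFB1 were added as family members. Depth limits the precision of low genes, and the limits given for TXNIP cover counting error only.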

Additional observations from a re-analysis of the deposited data

Results flagged for a closer look

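The response to Met-Hcy+ medium differed between MB468res-R8 and MB468 by a test of the difference itself (edgeR quasi-likelihood fit, Benjamini-Hochberg method) for 3 of the 5 tested genes. For ARRDC3 the difference, as log2 fold change in MB468res-R8 minus that in MB468, was -0.49 at 0.5 h (adjusted p = 0.0142) and -0.62 at 2 h (adjusted p = 0.000708). For PFKFB3 it was -0.30 at 0.5 h (adjusted p = 0.0296) and 0.51 at 12 h (edgeR adjusted p = 8.93e-07). For MLXIP it was 0.24 at 2 h (edgeR adjusted p = 0.0496). With spike-in scaling the differences of ARRDC3 at 0.5 and 2 h (-0.24 and -0.25) and of PFKFB3 at 0.5 h (-0.02) were not called, and those of PFKFB3 at 12 h (0.77) and MLXIP at 2 h (0.61) were.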

How the results depend on the processing

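Scaling on spike-in totals changed the most. It changed the number of the 5 genes called to 2 at 0.5 h in MB468, to 1 at 0.5 h, 0 at 2 h, and 2 at 12 h in MB468res-R8, and to 0 at 0.5 h and 1 at 2 h for the difference between the lines (PFKFB3 at 0.5 h was then -0.02). It also turned the sign of values that TMM scaling did not call: MLXIP at 12 h in MB468 (-0.22), ARRDC2 at 2 h in MB468res-R8 (-0.03), and the differences between the lines of PFKFB4 at 0.5, 2, and 12 h (0.05, 0.18, and 0.23), PFKFB3 at 2 h (0.33), and MLXIP at 12 h (0.15). In MB468res-R8 it turned ARRDC3 and MLXIP from 2 h to 12 h (0.06 and 0.02) and from 0.5 h to 2 h (-0.06 and -0.03), and in MB468 ARRDC3 from 0.5 h to 2 h (-0.04). The cause was not tested. MLXIP at 12 h in MB468 also turned sign at values near 0, to -0.0035 with DESeq2's size factors, -0.00067 with at least 10 counts in every library, and -0.0034 by DESeq2's Wald test, and ARRDC2 at 2 h in MB468res-R8 was -0.00091 in a fit to the groups compared.

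For the difference between the lines, an adjusted p under 0.01 left 0 of 5 genes at 0.5 h and 1 at 2 h, the fit to the groups compared left 1 at 0.5 h, and at least 10 counts in every library left 1 at 2 h. The replicate number as a block also left 1 at 2 h, with MLXIP at an adjusted p of 0.0502 (edgeR), and changed no other call. Deviations from the group means correlated at -0.0199 on average between libraries of the same number and at 0.0105 between others, so the numbers were not taken to pair libraries.

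Without 1 library in turn, 2 to 5 genes were called at 0.5 h in MB468res-R8, 0 to 2 for the difference at 0.5 h, and 1 to 2 at 2 h. Values that were not called crossed 0 in ARRDC2 at 2 h in MB468res-R8 (-0.08 to 0.09), ARRDC3 in MB468res-R8 from 2 h to 12 h (-0.10 to 0.08) and from 0.5 h to 2 h (-0.02 to 0.13), MLXIP at 12 h in MB468 (-0.01 to 0.03) and from 2 h to 12 h in MB468res-R8 (-0.06 to 0.02), and PFKFB4 at 2 h in MB468 (-0.10 to 0.04). The differences between the lines did so for ARRDC2 at 12 h (-0.01 to 0.21), PFKFB3 at 2 h (-0.11 to 0.02), and PFKFB4 at 12 h (-0.13 to 0.06). By transcript length the order of the 5 genes in MB468 at 0 h was the same, with ARRDC2 at 12.5 and MLXIP at 11.8 RPKM. In MB468res-R8 at 0 h ARRDC3 and MLXIP were then close, at 7.82 and 7.72 RPKM. Without centering, correlations with PFKFB3 were 0.28 to 0.92 for the 5 genes named. Depth limits what can be said of TXNIP and ARRDC4.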
